A study of Mus musculus with 4 samples.

Results

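The 10 genes described here mark dendritic cells, and were chosen by name: Xcr1, Clec9a, Flt3, Zbtb46, Itgax, Cd209a, Siglech, Batf3, Irf8 and Fscn1, out of 55291 gene symbols counted. They were followed in RNA sequencing counts of whole pancreas from 4 libraries. In 2 libraries the genotype was Pdx1-Cre+, poh1f/+ (labelled control here) and in 2 it was Pdx1-Cre+, poh1f/f (labelled knockout). All mice thus carried Pdx1-Cre, a recombinase driven by a promoter of pancreatic progenitors, and at least 1 floxed poh1 allele, so the control is itself heterozygous for the floxed gene in the Cre lineage. Dendritic cells come from bone marrow and lie outside that lineage. The age and sex of the mice, and whether each library was 1 animal, were not given in the sources used here. All p-values therefore measure only how far these libraries vary, which may be technical.

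Dendritic cells take up antigen, carry it to lymphoid tissue and show it to T cells. Conventional type 1 cells depend on Irf8 and Batf3 and present antigen from dead cells to CD8 T cells, type 2 cells present mainly to CD4 T cells, and plasmacytoid cells make type I interferon. Growth of all of these depends on the receptor Flt3 and its ligand Flt3l. Mature dendritic cells raise Fscn1 and Ccr7 and follow the chemokines Ccl19 and Ccl21 into T cell zones. Several of the genes are not private to dendritic cells: Irf8 is also a B cell and monocyte factor, Itgax is also carried by macrophages, Zbtb46 by endothelium, and Fscn1 by nerve and endothelial cells.

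RefSeq promoter windows (GRCm38.p6, 250 bases before to 50 after the start site) are shown for 3 genes: Xcr1 and Siglech, which had the largest rises, and Itgax, which did not pass the test. Capitals mark the letters of 4 searched motifs, on either strand, and no motif overlapped another. The Xcr1 window (chr9:123861980-123862279, minus strand) held no match, the Siglech window lies at chr7:55767934-55768233 (plus strand) and the Itgax window at chr7:128129300-128129599 (plus strand).
Xcr1: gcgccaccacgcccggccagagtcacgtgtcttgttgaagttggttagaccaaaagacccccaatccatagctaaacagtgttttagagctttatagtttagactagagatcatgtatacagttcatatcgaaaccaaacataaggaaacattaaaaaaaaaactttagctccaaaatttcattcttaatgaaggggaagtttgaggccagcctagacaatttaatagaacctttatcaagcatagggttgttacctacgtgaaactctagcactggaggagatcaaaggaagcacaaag
Siglech: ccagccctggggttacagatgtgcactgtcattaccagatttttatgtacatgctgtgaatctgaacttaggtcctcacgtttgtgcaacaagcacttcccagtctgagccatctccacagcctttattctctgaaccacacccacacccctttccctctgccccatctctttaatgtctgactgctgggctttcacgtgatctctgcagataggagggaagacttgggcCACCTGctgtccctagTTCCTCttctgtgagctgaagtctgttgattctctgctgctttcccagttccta
Itgax: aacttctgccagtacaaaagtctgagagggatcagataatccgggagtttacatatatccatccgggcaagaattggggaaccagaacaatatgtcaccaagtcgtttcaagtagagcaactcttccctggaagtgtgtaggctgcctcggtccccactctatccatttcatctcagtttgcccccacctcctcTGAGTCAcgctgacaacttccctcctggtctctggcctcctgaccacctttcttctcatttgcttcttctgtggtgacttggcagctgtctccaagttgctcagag

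The capitals in Siglech are the E protein box CAGGTG on the minus strand at −20, and the PU.1 core GAGGAA on the minus strand at −4, both counted from the start site. In Itgax they are the AP-1 letters TGANTCA at −56, which read the same on both strands. Over all 10 genes there were 11 windows (Irf8 has 2). The PU.1 core was in 2 of the 11 (Siglech and Batf3) and in 28.3% of all 32851 windows of this length. The E protein box was in 3 (Siglech, Zbtb46 and the second Irf8 window) against 20.2% of all windows, and the AP-1 letters were in 2 (Zbtb46 and Itgax) against 7.81%. The interferon regulatory factor pair was in 0 of the 11 and in 3.44% of all windows. These matches are letters in a window and describe no binding.

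The libraries held 22875618 to 27849730 counts, and values are given as CPM, counts scaled to the TMM-adjusted total of the library, where 1 count was worth 0.0342 to 0.0455 CPM. The floxed gene, now named Psmd14, did not fall in the libraries labelled knockout: it stood at 61.6 and 52.9 CPM in controls 1 and 2 and at 65.9 and 65.2 CPM in those labelled knockout 1 and 2 (log2 fold change 0.20 ± 0.11 SE, edgeR adjusted p = 0.259). Every direction below is therefore one between labels. Markers of the labelled tissue were present at unequal levels, with Cpa1, the acinar carboxypeptidase, at 1527 and 329 CPM in controls 1 and 2 and at 20.4 and 75.7 CPM in the libraries labelled knockout. Control 1 stood apart by its acinar markers (10 genes summing to 10644 CPM, against 2385 CPM in control 2). The acinar sum was 213 and 632 CPM in knockout 1 and 2, and 6 of the 10 genes were called lower. Their median log2 fold change was −3.89, and −2.29 without control 1. Knockout 2 stood apart by its enterocyte markers (10 genes summing to 661 CPM, against 6.41 to 25.1 CPM in the others). Markers of other tissue cells also moved with the labels. Adipocyte markers rose in 6 of 7 cases (sums of 259 and 598 CPM in controls, 2949 and 2175 CPM in knockout 1 and 2). Of 7 fibroblast markers 4 fell (24216 and 28212 against 9977 and 8718 CPM), as did 7 of 8 duct markers (3007 and 2467 against 765 and 817 CPM) and 4 of 7 islet markers (1807 and 1032 against 444 and 147 CPM; 1 of 7 without control 1 and 3 without control 2, 7 without either knockout library). Their part in the levels of the dendritic cell genes was not tested. For the 10 dendritic cell genes, each call that was lost with a library left out is given below. For the marker lists, not every change of a count with a library left out is given.

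Of the 10 dendritic cell genes, 8 rose in the libraries labelled knockout, 0 fell and 2 did not pass the test (edgeR quasi-likelihood test, Benjamini-Hochberg adjusted p under 0.05 over 19134 genes). Of all genes tested, 12.1% were called higher, 9.95% lower and 22.1% in either direction. The 8 were the type 1 genes Xcr1, Clec9a, Batf3 and Irf8, the plasmacytoid gene Siglech, the pan-dendritic genes Flt3 and Zbtb46, and the maturation gene Fscn1. The type 2 gene Cd209a and the integrin Itgax did not pass. The median log2 fold change of the 10 was 1.19, and that of all genes tested was −0.0018. Both libraries labelled knockout lay above both controls for 9 of the 10, as they did for 34.4% of all genes tested. In either direction, the groups did not overlap for 68.1% of all genes tested. DESeq2 and limma-voom also called 8 higher and 0 lower (15% and 11.7% of all genes higher). An unadjusted edgeR p under 0.05 was found for 9 of the 10, all in the higher direction. It was found for 7354 of the 19134 genes tested, in either direction. All 10 passed the filter on low counts, and each had counts in every library. Leaving out control 1, control 2, knockout 1 or knockout 2 left 4, 6, 7 and 5 of the 10 called higher, beside 4.71%, 9.6%, 11.2% and 9.99% of all genes. At an adjusted p under 0.01, 5 were called higher (Xcr1, Clec9a, Siglech, Flt3 and Fscn1), beside 3.37% of all genes. The count was 8 with no scaling beyond the total, with DESeq2 or upper quartile scaling, without the filter, with a minimum of 1 CPM and with a replicate block, where 14.8%, 12.2%, 12.2%, 6.87%, 12.3% and 10.2% of genes were called higher. In whole tissue, more cells of a type and more RNA per cell cannot be told apart.

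**Figure D1:**
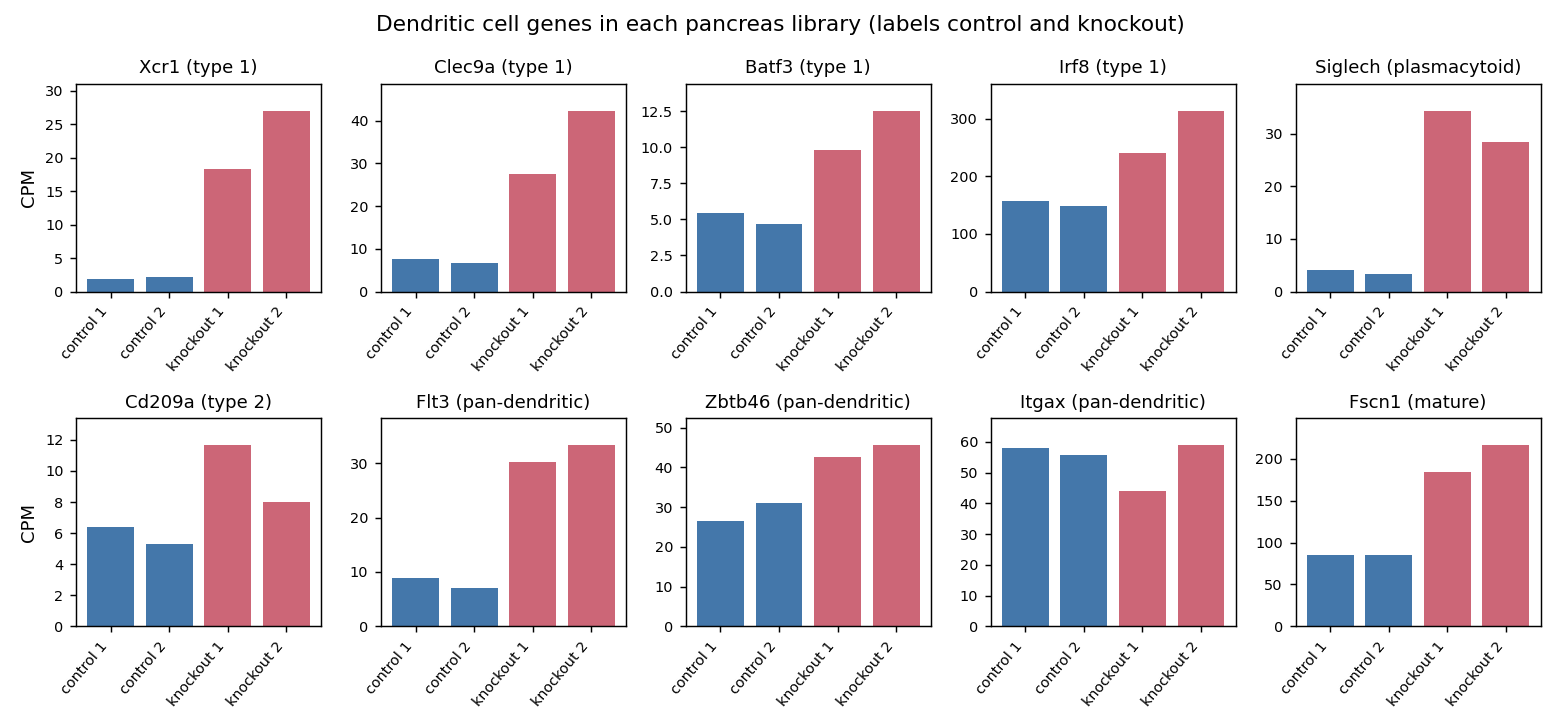
CPM (vertical axes, from 0, different for each gene) of the 10 dendritic cell genes in the 4 libraries, with controls in blue and libraries labelled knockout in red; each bar is 1 library. The red bars of Xcr1 and Siglech are many times the blue ones, whereas those of Itgax, at 44 and 58.8 CPM, lie to both sides of the controls at 58 and 55.8 CPM.

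All 4 type 1 genes rose, the surface receptors Xcr1 and Clec9a by more than the factors Batf3 and Irf8 in fitted fold change, a difference that was not tested. Xcr1, the receptor by which type 1 cells follow the chemokine Xcl1 (chromosome 9, 123852315 to 123862029, minus strand, GRCm38), had 40 and 52 counts in controls 1 and 2, against 512 and 790 in the libraries labelled knockout 1 and 2. This was 1.82 and 2.18 CPM against 18.3 and 27 CPM, so that the lower of the second pair was still far above both controls. Mean levels were 2 ± 0.252 and 22.7 ± 6.15 CPM (SD, n = 2 each), and the log2 fold change was 3.50 ± 0.28 (SE; 95% interval 2.80 to 4.21; edgeR adjusted p = 0.00359). Clec9a, the lectin receptor by which type 1 cells sense dead cells (chromosome 6, 129408862 to 129424763, plus strand), stood at 7.69 and 6.61 CPM in controls and at 27.5 and 42.3 CPM in the libraries labelled knockout. Its log2 fold change was 2.29 ± 0.26 (edgeR adjusted p = 0.00744). In the annotation used here 184 bases, or 5.59%, of the exons of Clec9a are shared with its neighbour Clec1b on the same strand, so reads there may not be assigned to either gene with certainty. Within a library there were 4.22 and 3.04 Clec9a counts per Xcr1 count in controls, and 1.5 and 1.56 in the libraries labelled knockout; no test was made of this ratio.

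The transcription factors of the type 1 lineage follow. Batf3, a basic leucine zipper factor needed for type 1 cells (chromosome 1, 191097847 to 191108945), was at 5.41 and 4.69 CPM in controls and at 9.78 and 12.5 CPM in the libraries labelled knockout (log2 fold change 1.14 ± 0.23, edgeR adjusted p = 0.0277). Irf8, which sets type 1 and plasmacytoid fate (chromosome 8, 120736358 to 120756694), was at 156 and 148 CPM in controls and at 241 and 314 CPM in the libraries labelled knockout. Its log2 fold change was 0.87 ± 0.16 (edgeR adjusted p = 0.0223). For both genes the groups did not overlap, and knockout 2 was the higher library, as it was for Xcr1 and Clec9a. Beside Irf8, all 8 B cell markers rose, from a sum of 32.7 to 57.2 CPM in controls to 1091 to 1120 CPM in the libraries labelled knockout, with none at 0 in any library. The part of B cells in the Irf8 level was not tested. The calls of Batf3 and Irf8 were lost without control 1 (edgeR adjusted p = 0.0873 and 0.0893), control 2 (0.088 and 0.0806) or knockout 2 (0.0753 and 0.0633), with log2 fold changes from 0.95 to 1.26 for Batf3 and from 0.67 to 0.92 for Irf8 in those fits. The call of Clec9a was lost without control 1 (log2 fold change 2.41, edgeR adjusted p = 0.0552), and that of Xcr1 was kept in each of the 4 fits that left out a library.

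Siglech, a surface lectin of plasmacytoid cells (chromosome 7, 55768178 to 55778925), had 91 and 79 counts in controls and 959 and 830 in the libraries labelled knockout. In CPM these were 4.14 and 3.30 against 34.4 and 28.4. The higher library was knockout 1, unlike for the type 1 genes, and both stood well above both controls. The log2 fold change was 3.08 ± 0.21 (edgeR adjusted p = 0.00241), and it was called in each fit with a library left out (2.93 to 3.25). Siglech is also carried by some macrophages and microglia, and the part of macrophages in its level was not tested. Of 13 macrophage markers 8 fell and 2 rose (5 fell without control 1, knockout 1 or knockout 2, and with the replicate block), and their sum was 4448 to 4919 CPM in controls and 3107 to 3419 CPM in the libraries labelled knockout.

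Cd209a, a DC-SIGN family lectin of type 2 and monocyte-derived cells (chromosome 8, 3743397 to 3748984), did not pass. It was at 6.41 and 5.31 CPM in controls and at 11.6 and 8.01 CPM in the libraries labelled knockout, with 141, 127, 325 and 234 counts in that order. The groups did not overlap, but the 2 libraries labelled knockout differed more from each other than the lower of them did from control 1. The log2 fold change was 0.74 ± 0.27 (95% interval 0.06 to 1.43, unadjusted p = 0.0384, edgeR adjusted p = 0.11). It was 0.45 without knockout 1 and 0.99 without knockout 2 (edgeR adjusted p = 0.446 and 0.0529). Set against Cd209a within each library, Xcr1 had 0.284 and 0.409 counts per Cd209a count in controls and 1.58 and 3.38 in the libraries labelled knockout, and Siglech had 0.645 and 0.622 against 2.95 and 3.55. These ratios are given as a description, and whether type 1 or plasmacytoid genes rose more than Cd209a was not tested.

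Of the 3 genes shared by dendritic subsets, Flt3 and Zbtb46 rose and Itgax did not pass the test. Flt3, the receptor for the dendritic growth factor Flt3l (chromosome 5, 147330741 to 147400489), was at 8.87 and 6.99 CPM in controls and at 30.2 and 33.3 CPM in the libraries labelled knockout (log2 fold change 2.003 ± 0.18, edgeR adjusted p = 0.00448). Zbtb46, a repressor that marks conventional dendritic cells (chromosome 2, 181387762 to 181459426), was at 26.5 and 31 CPM in controls and at 42.6 and 45.5 CPM in the libraries labelled knockout. Its log2 fold change was 0.62 ± 0.13 (edgeR adjusted p = 0.0313). The groups of neither gene overlapped. Zbtb46 lost its call without control 1 (edgeR adjusted p = 0.085), knockout 1 (0.0538) or knockout 2 (0.107), with log2 fold changes from 0.52 to 0.66. Endothelium also expresses Zbtb46, and 3 of 8 endothelial markers rose (5 without control 2), with a sum of 616 to 891 CPM in controls and 1049 to 1121 CPM in the libraries labelled knockout. Among them was the adhesion molecule Pecam1 (0.75 ± 0.13, edgeR adjusted p = 0.0192, and 0.058 without knockout 2). The part of endothelium in the Zbtb46 level was not tested.

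Itgax, the CD11c integrin chain (chromosome 7, 128129547 to 128150657), was at 58 and 55.8 CPM in controls and at 44 and 58.8 CPM in the libraries labelled knockout. It was the 1 gene of the 10 whose groups overlapped, and 68.1% of all genes tested had groups that did not overlap. The fitted log2 difference was −0.15 ± 0.16 (95% interval −0.56 to 0.26; edgeR adjusted p = 0.543), so the test leaves a small change in either direction possible. Itgax is also carried by macrophages, and of the 13 macrophage markers 8 fell, 2 rose and 3 were not called. Among those that fell were Cx3cr1 and Adgre1 (−1.08 ± 0.09 and −0.63 ± 0.11, edgeR adjusted p = 0.0039 and 0.0204). Adgre1 lost its call without knockout 1 or knockout 2. The 2 that rose were Timd4 and Lyve1 (log2 fold changes 3.61 and 2.59). The part of macrophages and of dendritic cells in the Itgax level was not tested.

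Fscn1, the actin-bundling protein of mature dendritic cells (chromosome 5, 142960343 to 142973185), was at 84.9 and 85 CPM in controls and at 185 and 216 CPM in the libraries labelled knockout. Its controls were nearly equal and its groups well apart, with a log2 fold change of 1.24 ± 0.12 (edgeR adjusted p = 0.00544), and it was called in each fit with a library left out (1.12 to 1.35). Nerve and Schwann markers, which share Fscn1, rose in 2 of 8 cases and 0 fell. The median log2 fold change of these markers was 0.57 in the main fit, −0.14 with limma-voom and −0.13 with the replicate block. This median was −0.86 without knockout 2. It was 0.37 without control 1, 0.93 without control 2 and 1.17 without knockout 1. The markers summed to 54.7 and 88.4 CPM in controls and to 78.3 and 162 CPM in the libraries labelled knockout. This sum overlapped between groups. The part of nerve, Schwann and endothelial cells in the Fscn1 level was not tested.

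**Figure D2:**
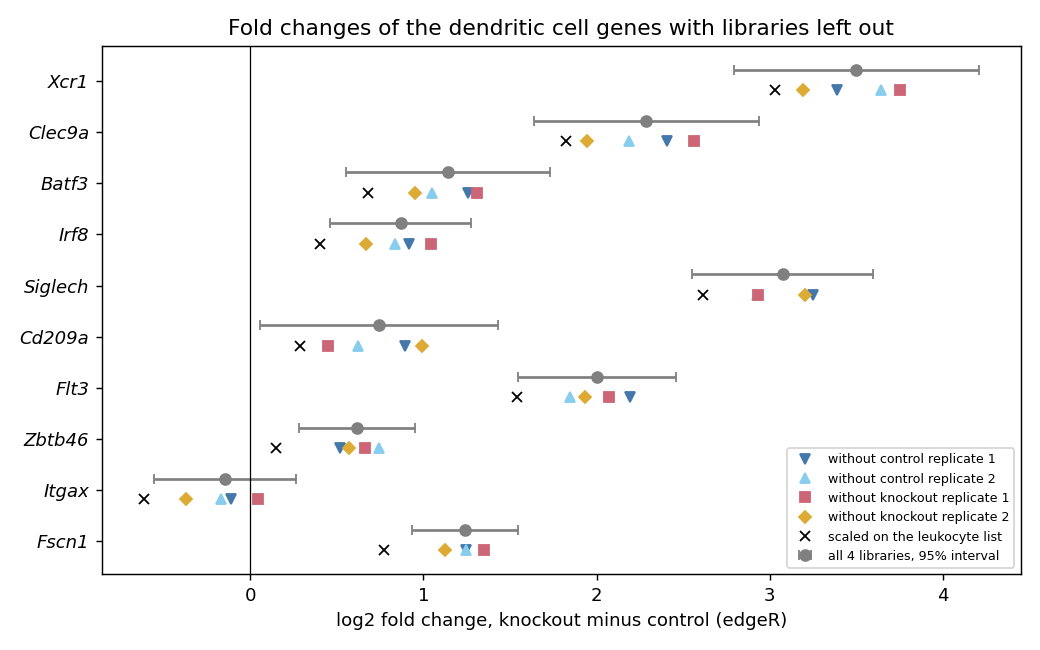
Log2 fold change (horizontal axis, knockout minus control, edgeR) of the 10 genes, with all 4 libraries (grey circle, bar for the 95% interval), with each library left out in turn (coloured symbols) and with scaling on 5 leukocyte genes (cross). Xcr1, Siglech, Clec9a and Flt3 stay at 1.54 or more under each of these, and Itgax lies on both sides of 0.

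Levels of different genes were compared per length, as CPM per kilobase of merged exons. In controls Fscn1 was first at 28.2 ± 0.0212, then Irf8 at 21.5 ± 0.841 and Itgax at 11.9 ± 0.322 CPM per kilobase (SD, n = 2). Cd209a (3.7 ± 0.492), Zbtb46 (3.37 ± 0.373) and Batf3 (3.16 ± 0.322) followed and did not differ from their neighbours beyond the spread. Clec9a (2.17 ± 0.231), Flt3 (1.28 ± 0.216), Siglech (1.1 ± 0.174) and Xcr1 (0.449 ± 0.0565) were last, Flt3 and Siglech being within their spread. In the libraries labelled knockout Fscn1 (66.6 ± 7.33) and Irf8 (39.3 ± 7.27 CPM per kilobase) were again first and second in each library. Itgax (10.7 ± 2.19), Clec9a (10.6 ± 3.18) and Siglech (9.28 ± 1.24) followed and did not differ beyond their spread, with Siglech the highest of them in knockout 1 and Clec9a in knockout 2. The other 5 lay close together, from Batf3 at 6.98 ± 1.22 down to Xcr1 at 5.1 ± 1.38, and did not differ from their neighbours beyond the spread. Xcr1 was last in knockout 1, and Cd209a in knockout 2.

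All leukocyte RNA did not rise evenly. The common leukocyte antigen Ptprc rose from 220 and 259 CPM in controls to 611 and 669 CPM in the libraries labelled knockout (log2 fold change 1.42 ± 0.15, edgeR adjusted p = 0.00634), whereas 3 of the other 4 leukocyte genes examined did not pass. Per 100 CPM of Ptprc, Xcr1 was at 0.827 and 0.84 in controls and at 3 and 4.04 in the libraries labelled knockout, Siglech at 1.88 and 1.28 against 5.62 and 4.24, and Clec9a at 3.49 and 2.55 against 4.5 and 6.32. Flt3 was also above both controls on this scale (4.03 and 2.7 against 4.95 and 4.98). Irf8, Cd209a, Zbtb46, Itgax and Fscn1 were below both controls, with Irf8 at 70.9 and 57.1 against 39.4 and 46.8, and Batf3 overlapped. The median over the 10 genes of the ratio between group means was 0.845 per Ptprc and 1.64 per mean CPM of the 5 leukocyte genes, so its direction depended on the denominator. A fit scaled on those 5 genes, added after the data were seen, moved the median of all genes from near 0 to −0.47 and called 7.45% of genes higher and 38.5% lower. In it Xcr1 (3.03), Siglech (2.62), Clec9a (1.82), Flt3 (1.54) and Fscn1 (0.77) rose, Itgax fell (−0.62, edgeR adjusted p = 0.0272) and the other 4 did not pass.

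**Figure D3:**
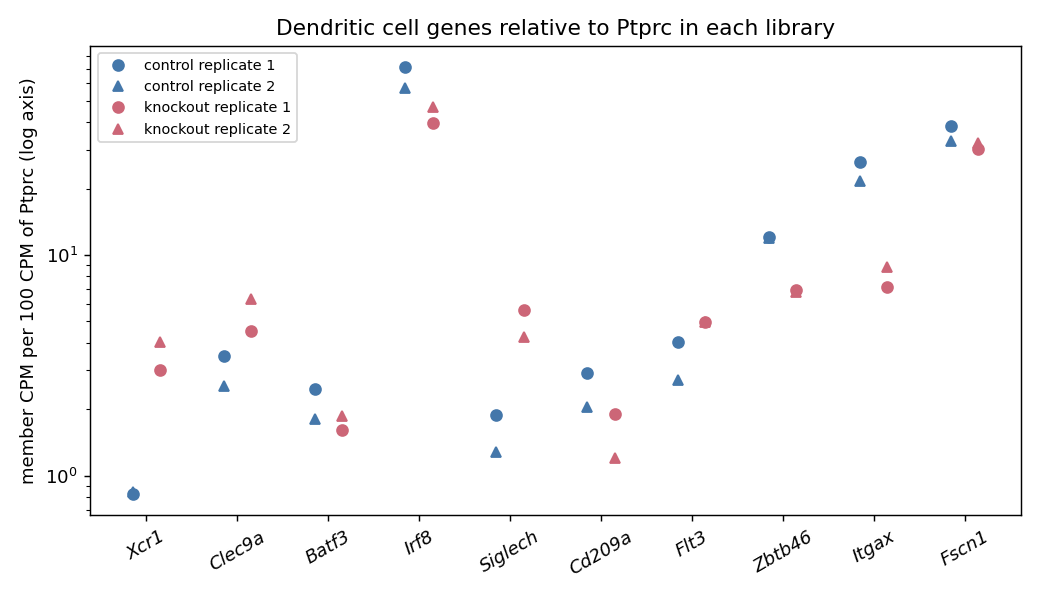
CPM of each of the 10 genes per 100 CPM of Ptprc in the same library (vertical log axis); blue points are controls, red points libraries labelled knockout, circles replicate 1 and triangles replicate 2. The red points lie above the blue ones for Xcr1, Clec9a, Siglech and Flt3 and below them for Irf8, Cd209a, Zbtb46, Itgax and Fscn1.

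Other genes of the same programmes were described from 5 further lists of 85 genes, 83 of which were tested: 39 rose, 6 fell and 38 did not pass. Of all genes tested in the same fit, 12.1% were called higher and 9.95% lower. These shares stand beside the count of each list below. Of 12 further type 1 genes, 6 rose, 1 fell and 5 did not pass (median log2 fold change 1.04). Gcsam, a signalling protein also of germinal centre B cells, was at 1.27 and 0.92 CPM in controls and at 10.8 and 9.89 CPM in the libraries labelled knockout. Itgae, the CD103 integrin chain of type 1 cells and of mucosal T cells, was at 3.32 and 4.52 CPM against 24.5 and 37.1 CPM. Wdfy4, needed for cross-presentation and also expressed by B cells, had a log2 fold change of 1.81 ± 0.17 (edgeR adjusted p = 0.00516). The gene that fell was Rab7b, a lysosomal GTPase (−0.79 ± 0.17, edgeR adjusted p = 0.0328). Without control 1 the type 1 list had 3 higher and 0 lower, and Rab7b was not called (edgeR adjusted p = 0.085) nor was it without knockout 2 (0.052).

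Type 2 genes were mixed, as Cd209a was not called either way. Of 11 further genes, 4 rose, 2 fell and 5 did not pass (median 0.18). Those that rose were Irf4, Cd1d1, Tbx21 and Mgl2. Irf4, a factor of type 2 cells and also of plasma cells and T cells, went from 12 ± 1.48 to 110 ± 5.94 CPM, and Mgl2, a lectin of dermal type 2 cells and macrophages, from 13.8 ± 0.0131 to 28.4 ± 2.6 CPM (SD, n = 2 each). Cd1d1 presents lipids and is shared with B cells, and Tbx21 is the T-bet factor of T and natural killer cells (edgeR log2 fold changes 1.60 and 3.09). Those that fell were the myeloid receptors Sirpa (−0.62 ± 0.13) and Clec12a (−1.26 ± 0.21; edgeR adjusted p = 0.0285 and 0.0187), which monocytes and macrophages also carry. Sirpa was not called without control 1 (edgeR adjusted p = 0.0562), knockout 1 (0.15) or knockout 2 (0.143), and neither Clec12a nor Mgl2 was called without control 1 (0.0661 and 0.0564).

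Plasmacytoid genes also divided. Of 15 beside Siglech, 4 rose, 3 fell and 8 did not pass (median −0.25). Spib, a factor of plasmacytoid and B cells, had the largest rise, from 7.69 and 5.61 CPM in controls to 145 and 141 CPM in the libraries labelled knockout (log2 fold change 4.43 ± 0.18, edgeR adjusted p = 0.00153). Ccr9, a homing receptor of plasmacytoid and T cells, had a log2 fold change of 3.23 ± 0.24 and Ly6d, shared with B cells, one of 2.05 ± 0.22 (edgeR adjusted p = 0.0031 and 0.00713). The fourth was Pacsin1, an endocytic adaptor also of neurons (2.19 ± 0.26). Tlr7, a sensor of RNA, Runx2 and Pld4 fell (−0.92 ± 0.11, −0.88 ± 0.12 and −0.54 ± 0.12), and they too were not called without control 1 (edgeR adjusted p = 0.051, 0.0556 and 0.0647), nor was Pld4 without knockout 1 (0.145) or knockout 2 (0.193). Tcf4, the master factor of plasmacytoid cells that stroma also expresses, was at 242 and 226 CPM in controls and at 191 and 161 CPM under the knockout label (edgeR adjusted p = 0.084; DESeq2 called it lower, adjusted p = 0.0309).

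Maturation genes moved with Fscn1. Of 21 tested, 14 rose, 0 fell and 7 did not pass (median 1.16); DESeq2 and limma-voom also called 0 lower, and 1 was lower at an unadjusted edgeR p under 0.05. Ccr7, the receptor that leads mature cells and naive lymphocytes to T cell zones, was at 7.96 and 7.07 CPM in controls and at 67.4 and 88.5 CPM in the libraries labelled knockout (log2 fold change 3.37 ± 0.19, edgeR adjusted p = 0.00179). Ccl22, a chemokine of mature dendritic cells, was at 5.64 and 5.73 CPM against 82.1 and 169 CPM, and Traf1, a signalling adaptor also of activated lymphocytes, at 17.4 and 16.5 against 92.8 and 102 CPM. The libraries labelled knockout stood far apart in Ccl22, and its call was lost without control 1 (log2 fold change 4.46, edgeR adjusted p = 0.0531). Without control 1, 8 of the 21 were higher. All 9 T cell markers rose in the same libraries, with sums of 30.5 to 38 CPM in controls and 408 to 460 CPM in the libraries labelled knockout. The part of lymphocytes in these levels was not tested.

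Ligands, chemokines and lineage factors of dendritic cells rose in 11 of 24 cases, 0 fell and 13 did not pass (median 0.50). At an unadjusted edgeR p under 0.05, 3 were lower, and DESeq2 called 10 higher and 2 lower, limma-voom 11 and 1. Flt3l, the ligand of Flt3, was at 12.8 and 15.8 CPM in controls and at 34 and 42.1 CPM in the libraries labelled knockout (log2 fold change 1.41 ± 0.18, edgeR adjusted p = 0.00995, and 0.0564 without control 1). Xcl1, the ligand of Xcr1 made by natural killer and CD8 T cells, was low at 0.32 and 0.25 CPM against 1.29 and 1.1 CPM (2.05 ± 0.44, edgeR adjusted p = 0.0324). With 6 to 36 counts a library, Xcl1 was not called with DESeq2 (adjusted p = 0.0568), with the replicate block (edgeR adjusted p = 0.0622) or with any library left out (edgeR adjusted p = 0.0742 to 0.111). Ccl19, the Ccr7 ligand of lymphoid stroma, was at 0.96 and 0.75 CPM against 19.6 and 24.9 CPM. Ikzf1 and Bcl11a, lymphoid factors that plasmacytoid cells share with B cells, rose by 1.71 ± 0.10 and 2.19 ± 0.15 (edgeR adjusted p = 0.002 and 0.00249). Csf2, the granulocyte-macrophage growth factor, did not pass the filter on low counts.

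**Figure D4:**
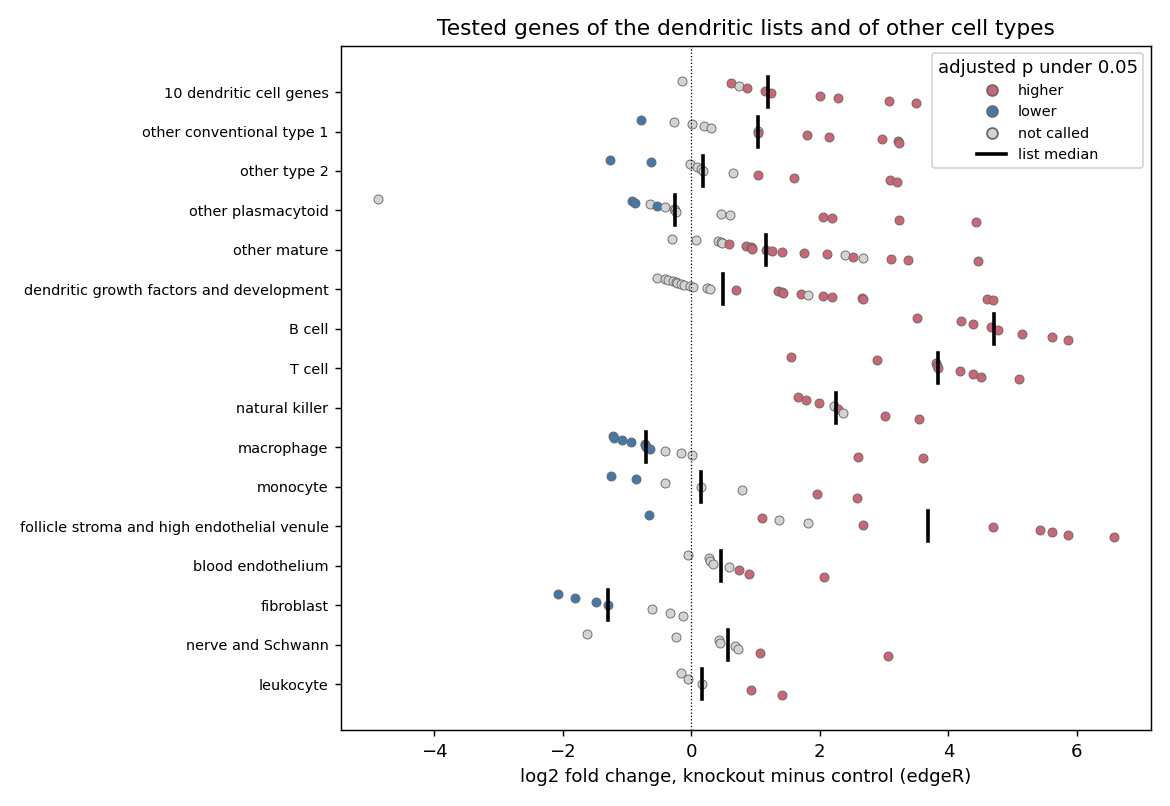
Log2 fold change (horizontal axis, knockout minus control, edgeR) of each tested gene of the dendritic lists and of lists for other cell types; red genes were called higher, blue lower, grey not called, and the black bar is the list median. The 10 dendritic cell genes have a median of 1.19, between those of B cell (4.72) and T cell (3.84) markers above and macrophage markers (−0.70) below.

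The profile over the 4 libraries, as log2 CPM centred on its mean, was compared with 14293 other protein-coding genes of at least 1 CPM on average. Closest to Xcr1 were Vmn2r97, a vomeronasal receptor gene, Clec1b, the lectin gene that overlaps Clec9a, and Vpreb3, a B cell gene (Euclidean distances 0.121, 0.15 and 0.208 on the log2 scale). Closest to Siglech were Gcsam, the T cell coreceptor Cd4 and the kinase gene Srpk3 (0.229, 0.241 and 0.244), and closest to Cd209a were Tas1r3, Hepacam2 and Txlnb (0.0803, 0.0884 and 0.104). With 4 libraries in 2 groups many genes share such a profile, and the distances describe these libraries alone.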

How the data were processed

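RNA of 4 mouse pancreas libraries was analysed, grouped and numbered by the sample titles. The deposited values are raw counts per gene symbol, 1 file per library, per the file headers. Per the submitters' processing notes the build was GRCm38, with alignment software STAR 2.7.6a, the counter featureCounts 2.0.1, and SAMtools 1.7, Trim Galore 0.6.6 and FastQC 0.11.9. Strand setting, annotation release and the rule for multiply aligned reads were not given in the sources used here, so reads of overlapping genes are uncertain. Coordinates and exon lengths are from GENCODE M21 (GRCm38), which holds 53292 of the 55291 symbols. Promoter windows are from RefSeq.

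In R 4.3.3, counts went into edgeR 4.0.16 (genes kept by filterByExpr, TMM, quasi-likelihood test with group as the only term, Benjamini-Hochberg adjustment over 19134 genes). SE is the fold change (log2) over the root of its F statistic. The fit was tested on simulated data. CPM uses TMM-scaled totals. The members and lists were chosen with earlier results of these data known. Named are all 10 genes, Psmd14, Ptprc, Cd3e, Adgre1, Cx3cr1, Pecam1 and Cpa1, up to 3 called genes in each direction of each further dendritic list and 1 of each other list by smallest p, and 3 genes of like profile for Xcr1, Cd209a and Siglech. 1 further marker that the rule names is not reported here. Genes outside this rule were chosen after their values were seen. Alternatives were 3 other scalings, 2 other filters, DESeq2 1.42.0, limma-voom (limma 3.58.1), an adjusted p under 0.01, a replicate block, each library left out (with the gene filter of the full fit, the lone library of a group being assumed to vary like the other group), and a scaling on 5 leukocyte genes added later. CPM of 1 count limits precision, and counting error alone does not cover the spread between libraries.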

Additional observations from a re-analysis of the deposited data

How the results depend on the processing

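Of the 10 dendritic cell genes, 8 were called higher with each of 3 other scalings, both other filters, DESeq2 and limma-voom. Leaving out each library gave 4 to 7 higher, the lowest without control 1, where 4.71% of all genes were called higher, and 5 were higher without knockout 2. The scaling on leukocyte genes gave 5 higher and 1 lower, and an adjusted p under 0.01 gave 5 higher. No gene of the 10 was called lower in the other fits. Among the 83 further dendritic genes the 6 lower became 10 with DESeq2 and 24 with the leukocyte scaling. The 6 became 1 with an adjusted p under 0.01 and 0 to 7 with a library left out (0 without control 1). Of all genes tested, 9.95% were lower in the main fit, 12.8% with DESeq2 and 38.5% with the leukocyte scaling. The share was 1.69% at an adjusted p under 0.01 and 2.89% to 8.16% with a library left out (2.89% without control 1). At an adjusted p under 0.01 markers of other cell types had 26 higher and 14 lower in place of 46 and 35; with a library left out 23 to 42 were lower. The median ratio to Ptprc of 0.845 became 1.64 with the mean of 5 leukocyte genes and 0.759 to 0.956 with a library left out. Without scaling 2827 genes were higher and 1527 lower, against 2320 and 1904, and the median of all genes was 0.0969, against −0.0018. The deviations of same-numbered libraries had a correlation of −0.0502 across genes. With 2 pairs this cannot show whether the replicate numbers in the titles pair the libraries. With the replicate block 8 of the 10 were higher, and all genes had 1960 higher and 1432 lower. The causes of these changes were not tested. Counts of 40 to 52 limit the precision of the Xcr1 level in controls.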

Other observations

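Of all genes tested, 12.1% were called higher and 9.95% lower in the main fit, and 3.37% higher at an adjusted p under 0.01. These shares stand beside the counts below, and those with a library left out are given above. Of 8 natural killer markers 6 rose and 2 did not pass (median log2 fold change 2.26). The count of 6 fell to 1 without control 1, to 3 without control 2 and to 1 at an adjusted p under 0.01. Among the 6 was Eomes, a factor of natural killer and memory CD8 T cells, at 0.82 and 0.88 CPM in controls and at 8.24 and 5.61 CPM under the knockout label (edgeR adjusted p = 0.00744, and 0.0532 without control 1). Of 10 tested genes of follicle stroma and high endothelial venules, the vessels through which lymphocytes and plasmacytoid cells enter lymphoid tissue, 7 rose and 1 fell; of the 7, Cr2 and Fcer2a are also on the B cell list and Ccl19 and Ccl21a on the dendritic one. Glycam1, a mucin of these vessels, was at 0.45 and 0.33 CPM in controls and at 36.4 and 39.3 CPM under the knockout label (edgeR adjusted p = 0.00153). Of 7 monocyte markers 2 rose and 2 fell; without control 1, 0 rose by edgeR (4 of 7 had an unadjusted p under 0.05 in either direction), without control 2, 1 rose, and without knockout 1, 1 fell. The fetal liver and spleen macrophage receptor Timd4 rose against the direction of most macrophage markers (2.82 and 2.72 CPM against 40.5 and 27.2 CPM, edgeR adjusted p = 0.00286), as did Lyve1 (2.59 ± 0.19).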
